A study of Mus musculus with 12 samples.

Results

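The genes described here are 40 messenger RNAs that hepatocytes make for the blood: complement proteins, clotting factors, their inhibitors and the proteins that dissolve clots. They were taken by symbol from a deposited table of 16116 genes, which has a row for 39 of them and none for Cfb, complement factor B. All 39 stood at a log2 level of at least 1 in every library, and so were among the 10681 genes kept for testing. Their mean levels ran from 5.74 for F11 to 14.01 for C3 in log2 CPM, reads scaled to a common total and put on a log2 scale, with a median of 9.49, and 34 of the 39 lay above the 90th percentile of kept genes. Because each gene was read through its own single amplicon, these levels place a gene among all genes but do not rank the factors against each other.

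Hepatocytes were sorted from mice given adeno-associated virus at 3 weeks of age, and 2 libraries were made for each of 6 groups. All viruses used the hepatocyte promoter TBG. In the YAP experiment, sorted 3 weeks later, the wild type control received AAV2/8-TBG-GFP. The Sox9-heterozygous YAP group (Sox9 fl/+) and the Sox9-null YAP group (Sox9 fl/fl) received AAV2/8-TBG-Cre with AAV2/8-TBG-YAP S127A-P2A-GFP, a YAP mutated at a serine through which Hippo kinases restrain it. In the Mst experiment, sorted 4 weeks after injection, the floxed control was Mst1 fl/fl and Mst2 fl/fl with the reporter ROSA26-lsl-TdTomato and received AAV2/8-TBG-GFP. The Sox9-heterozygous Mst group carried these alleles with Sox9 fl/+, the Sox9-null Mst group with Sox9 fl/fl, and both received AAV2/8-TBG-Cre, which deletes the Hippo kinases Mst1 and Mst2. Neither control received Cre, so a comparison with a control holds Cre, the loss of 1 or 2 Sox9 alleles and the activation of Yap together. The viruses differed too, with 2 given to the YAP groups and 1 to their control. In the Mst experiment the control received GFP and the other groups Cre alone, so the marker sorted on may also have differed. Cells were sorted as GFP+ or TdTomato+, and as Epcam- and CD45-. Whether paired libraries of a group derive from different mice is not in the labels, so the p-values here reflect only the spread between libraries, which may be technical.

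Complement and coagulation are cascades of serine proteases that circulate as inactive precursors and are cut in turn. In complement, mannose-binding lectins and antibody complexes lead to C3 and C5 convertases and then to a pore of C5b to C9. In coagulation, tissue factor with factor VII, or the contact factors, lead through factor X to thrombin, which turns fibrinogen into fibrin, and plasmin dissolves the clot. Hepatocytes are the main source of most of these proteins, and many of their genes depend on HNF4 and C/EBP factors and respond to IL-6 through STAT3.

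Fibrinogen, the clot's own substrate, is a hexamer of 3 chains whose genes lie side by side on mouse chromosome 3 (GRCm38, GENCODE M21). Fgg spans chr3:83007724-83015049 and Fga chr3:83026076-83033627, both on the plus strand, and Fgb spans chr3:83040141-83049863 on the minus strand. The gaps are 11026 bases from Fgg to Fga and 6513 bases from Fga to Fgb. The 250 bases before each RefSeq start (GRCm38.p6) are printed because the 3 genes were high together in 1 library. The windows are chr3:83025903-83026152 (+) for Fga, chr3:83049864-83050113 (-) for Fgb and chr3:83007474-83007723 (+) for Fgg, and the GENCODE start of Fga lies inside its window. Capitals mark matches on either strand to CAAAG (HNF4), TTGCNNAA (C/EBP), GGAATG (TEAD, the DNA partner of Yap) and TTCNNNGAA (STAT).
Fga: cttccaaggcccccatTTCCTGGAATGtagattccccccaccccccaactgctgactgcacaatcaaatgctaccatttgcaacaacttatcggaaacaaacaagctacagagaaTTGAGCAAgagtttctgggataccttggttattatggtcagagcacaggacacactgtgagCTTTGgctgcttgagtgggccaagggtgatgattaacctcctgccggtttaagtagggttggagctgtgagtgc
Fgb: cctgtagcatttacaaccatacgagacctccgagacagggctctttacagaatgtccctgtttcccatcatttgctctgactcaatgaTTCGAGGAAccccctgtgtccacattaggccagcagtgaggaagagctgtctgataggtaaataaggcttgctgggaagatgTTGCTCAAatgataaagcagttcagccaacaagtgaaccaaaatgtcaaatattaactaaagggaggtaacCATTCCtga
Fgg: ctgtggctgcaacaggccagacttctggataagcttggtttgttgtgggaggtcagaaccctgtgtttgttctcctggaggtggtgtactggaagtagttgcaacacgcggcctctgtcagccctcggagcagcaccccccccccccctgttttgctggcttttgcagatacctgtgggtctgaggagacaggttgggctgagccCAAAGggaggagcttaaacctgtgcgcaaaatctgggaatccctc

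In the Fga window the HNF4 match began 74 bases before the start, the C/EBP match 135, the TEAD match 229 and the STAT match 234, the last 2 of which overlap. The Fgb window held a C/EBP match at 80 bases, a STAT match at 162 and a TEAD match at 9. The Fgg window held an HNF4 match alone, at 45 bases. The Fga and Fgb windows therefore share 3 kinds of match that the Fgg window lacks. Whether any match bears on the library in which the 3 transcripts were high was not tested. RefSeq windows were found for 31 of the 39 genes, 32 windows in all. Of these, 68.8% held CAAAG against 48.6% of all 32851 windows, and 25% held TTGCNNAA against 9.56%. TTCNNNGAA was in 18.8% against 7.02%, GGAATG in 18.8% against 12.6%, TGTTTAC (FOXA) in 6.25% against 3.17%, and AACAAT (SOX) in 9.38% against 9.42%. A match describes the letters only.

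The table carries adjustments that bear on every test. Gene by gene, the 2 control means had been made equal (median difference 0.0085 on the log2 scale), and in the Mst experiment the mean of the first libraries equalled that of the second (0.0051, against 0.168 in the YAP experiment). In 10671 of the 10681 kept genes, each library's distance from its group mean was also a whole multiple of a step set per gene. The step was read here as a factor that had multiplied the distances, taken over an assumed first step of 0.005. The step found can be a multiple of the true one, and Proz had the highest factor of the 39, 6.26. The median factor was 1.58 over kept genes and 3.01 over the 39 liver factors, 37 of which lay above 1.58. On this reading their spread between libraries had been widened more than that of most genes. How and why this was done was not given in the sources used here.

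As a check of the labels, Sox9 stood at 3.90 and 3.59 in the wild type control, 4.41 and 5.28 in Sox9-heterozygous YAP and 2.28 and 2.62 in Sox9-null YAP. In the floxed control it stood at 4.33 and 3.13, in the Sox9-heterozygous Mst group at 6.47 and 5.9985, and in the Sox9-null Mst group at 1.41 and 1.29. Sox9 was thus lowest in the Sox9-null groups, and Yap1 rose in the Sox9-null YAP group (1.19, SE 0.24, adjusted p = 0.00556) and was at 0.91 with Sox9 heterozygous (SE 0.24, adjusted p = 0.075). Stk4 and Stk3, which encode Mst1 and Mst2, did not pass the test in either Mst group (Stk4 -0.36 and -0.57, Stk3 0.22 and 0.31); whether their amplicons lie in the deleted exons is not given.

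Few of the factors passed the test. A gene was called at a Benjamini-Hochberg adjusted p under 0.05 in limma, over all 10681 kept genes. For Sox9-heterozygous YAP 0 of 39 were called, where 1.57% of kept genes were, and for Sox9-null YAP 0 of 39, where 7.12% were. In the Sox9-heterozygous Mst group 1 was called (4.25% of kept genes) and in the Sox9-null Mst group 0 (7.76%). With the 4 activated groups set against both controls, 1 of 39 was called, where 13.8% of kept genes were. At an unadjusted p under 0.05 the counts were 1 (10.6% of kept genes), 1 (20.8%), 4 (16.1%), 2 (19.5%) and 5 (26.7%) in the same order. The gene called in both cases was C2.

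**Figure D1:**
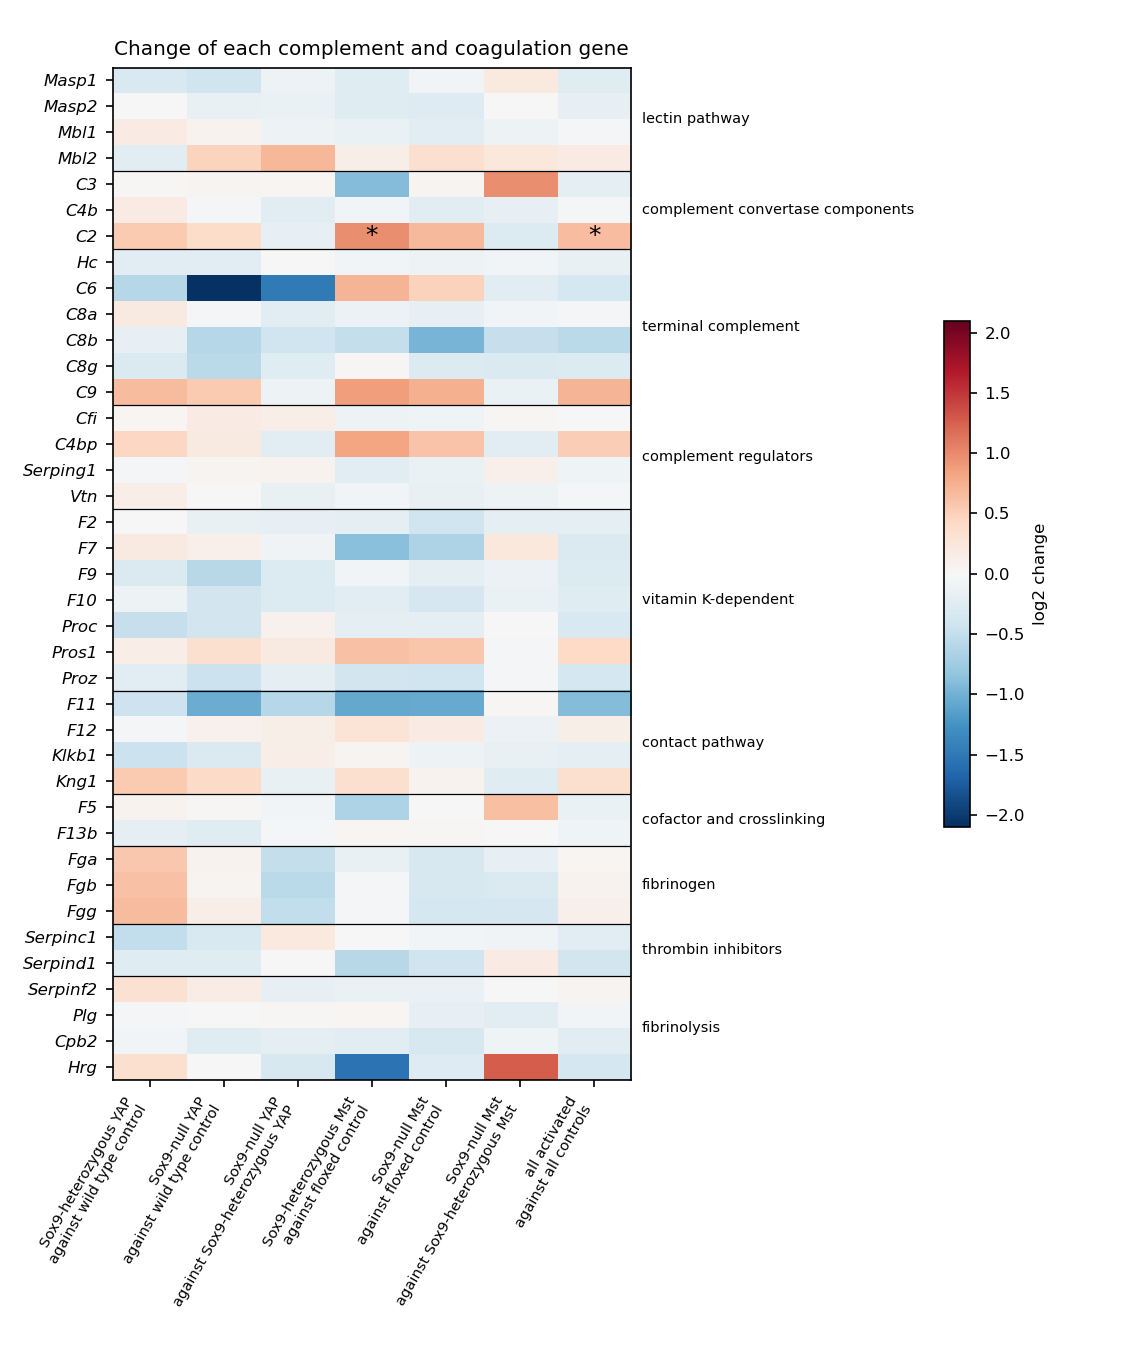
Log2 change of each of the 39 genes (rows, grouped by role) in 7 comparisons (columns), coloured from blue (lower) to red (higher); a star marks an adjusted p under 0.05. Only the C2 row carries stars, in the Sox9-heterozygous Mst group and in all activated groups against all controls.

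The median change of the 39 was -0.02 in each YAP group, -0.11 in the Sox9-heterozygous Mst group and -0.17 in the Sox9-null Mst group. Over all kept genes the medians were 0.07, 0.21, 0.08 and 0.17. With all activated groups against all controls, 12 of the factors had a value above 0 and 27 below, with a median of -0.14, while 66.6% of kept genes were above 0, with a median of 0.13. When library medians were made equal, which takes away that shift of all genes, the factors' median was -0.32. As deposited, the factors' median ran from -0.14 to -0.04 with a library left out, being smallest without library 2 of the floxed control. It was -0.06 without library 2 of Sox9-heterozygous Mst. The linear values of a library summed to 879620 to 920020 in the controls and to 938683 to 1011693 in the activated groups. The share of that sum held by the 39 genes ran from 6.55% to 7.87% in the 4 control libraries and from 5.28% to 9.84% in the 8 activated ones, so the groups overlapped. The highest share was in library 2 of Sox9-heterozygous YAP and the lowest in library 2 of Sox9-heterozygous Mst.

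The interval of each change says how far a difference can be bounded, given the spread of the values as adjusted. The fit counts the 2 controls as separate groups although their means had been made equal. How well the intervals bound a true difference is therefore not known. In the comparison of all activated groups, the 95% interval lay within a log2 change of 1 either way for 33 of the 39. That was 84.6% of the factors, against 79.6% of kept genes. Within single groups it did so for 16 and 18 genes in the YAP groups and for 18 and 15 in the Mst groups, with a median SE of 0.38. These were 41%, 46.2%, 46.2% and 38.5% of the factors, against 60.4%, 52.3%, 55.7% and 52.9% of kept genes. A missed threshold in one group is therefore compatible with changes of more than 2-fold for most of the factors there.

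**Figure D2:**
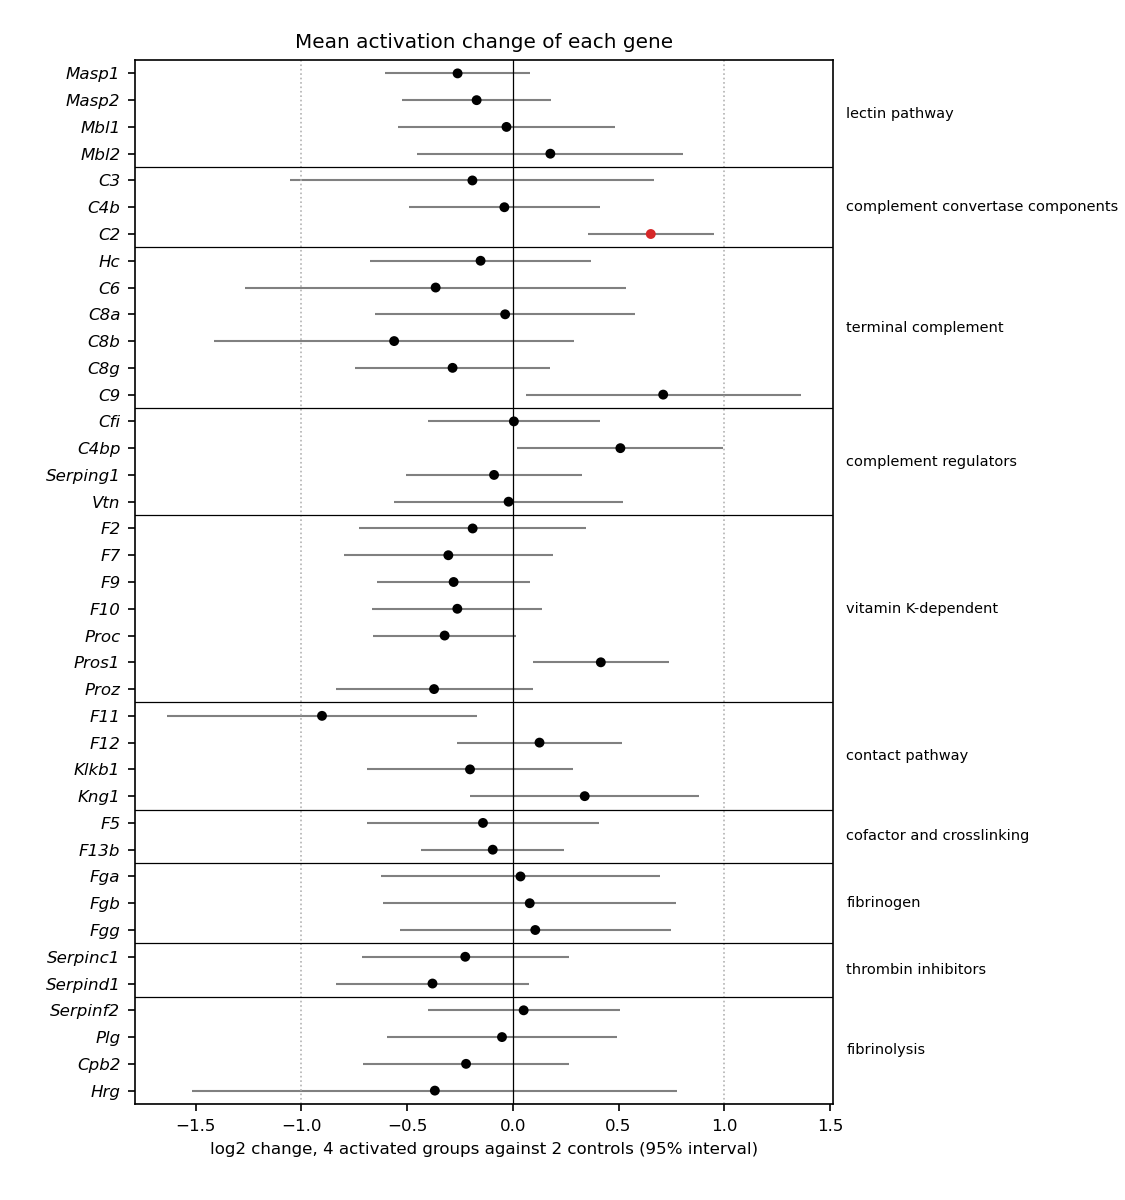
Log2 change of each gene, 4 activated groups against 2 controls, as points with 95% intervals; red marks the gene with an adjusted p under 0.05, and dotted lines mark a log2 change of 1 either way. C2 sits at 0.65 and F11 lowest at -0.90, and 33 of the 39 intervals (84.6%, against 79.6% of kept genes) stay between the dotted lines.

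The lectin pathway begins with the mannose-binding lectins, encoded by Mbl1 and Mbl2, and their proteases Masp1 and Masp2. None of these 4 genes was called in any comparison, and with all activated groups against all controls they lay between -0.26 (Masp1) and 0.18 (Mbl2). Mbl2 stood at 7.18 and 7.75 in the wild type control, 8.27 and 6.21 in Sox9-heterozygous YAP and 7.89 and 7.98 in Sox9-null YAP. The Mst libraries gave 7.78 and 7.11 in the floxed control, 7.12 and 8.01 with Sox9 heterozygous and 7.88 and 7.69 with Sox9 null. The Sox9-heterozygous YAP libraries held both the highest and the lowest of its 12 values, and its Sox9-null against heterozygous difference there, 0.69 (SE 0.48), turns to -0.34 without library 2.

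Of the convertase components, C2 rose. This gene encodes the protease that joins C4b in the classical and lectin C3 convertase. C2 stood at 6.64 and 6.43 in the wild type control, 7.21 and 6.97 in Sox9-heterozygous YAP and 6.82 and 7.01 in Sox9-null YAP. It stood at 6.57 and 6.47 in the floxed control, 7.31 and 7.70 in the Sox9-heterozygous Mst group and 7.33 and 7.09 in the Sox9-null Mst group. All 8 activated libraries thus lay above all 4 controls, and every one of the 4 activated groups had a positive change. How many of all kept genes separated in this way was not counted, here or for the genes below. The means of the 2 controls had also been made equal gene by gene. The rise was 0.65 (SE 0.14, adjusted p = 0.0047) over all activated groups and 0.98 (SE 0.23, adjusted p = 0.022) in the Sox9-heterozygous Mst group. The other groups gave 0.56 (Sox9-heterozygous YAP, adjusted p = 0.37), 0.38 (Sox9-null YAP, 0.38) and 0.69 (Sox9-null Mst, 0.086). Without library 1 or 2 of the floxed control, or library 2 of the Sox9-heterozygous Mst group, the call in that group was lost (adjusted p = 0.11, 0.19 and 0.27), whereas the call over all activated groups held with each library left out. The call in the Sox9-heterozygous Mst group was also lost with the replicate block (0.061), with 1 experiment alone (0.052) and without a trend (0.053).

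The identity of the C2 amplicon limits that result. C2 (chr17:34862604-34898265, minus strand) and Cfb, which encodes the matching protease of the alternative pathway (chr17:34856374-34862518), lie 85 bases apart, and a readthrough gene, Gm20547, overlaps both. RefSeq lists C2 among the older names of Cfb. The table does not say which of these transcripts the C2 row reads.

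C3 encodes the protein on which all complement pathways meet. It stood at 14.02 and 14.25 in the wild type control, 14.06 and 14.26 in Sox9-heterozygous YAP and 14.42 and 13.98 in Sox9-null YAP. Its floxed controls read 13.81 and 14.46, the Sox9-heterozygous Mst libraries 13.74 and 12.70 and the Sox9-null Mst libraries 14.03 and 14.36. Library 2 of the Sox9-heterozygous Mst group was the low one, and the change of that group, -0.92 (SE 0.66, adjusted p = 0.56), rests on it in part. C4b, the partner of C2, lay at -0.04 over all activated groups; it has a near-identical copy, C4a, whose reads the table may not separate.

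Terminal complement proteins assemble the membrane pore, starting from C5, which mouse gene Hc encodes. None of the 6 was called. C6, the second protein of the pore, had the most negative change of the 39 in the Sox9-null YAP group. It stood at 9.44 and 8.47 in the wild type control, 7.10 and 9.62 in Sox9-heterozygous YAP and 5.68 and 8.08 in Sox9-null YAP. In the Mst experiment its 6 values lay between 8.84 and 9.67: 9.05 and 8.84 in the floxed control, 9.67 and 9.65 with Sox9 heterozygous and 9.32 and 9.55 with Sox9 null. Both Sox9-null YAP libraries were below both of their controls, by 2.07 on average (SE 0.69, adjusted p = 0.087), but they differed by 2.40 from each other. The value is -3.27 without library 2 of that group and -0.87 without library 1. C6 is called there with the replicate number as a block (adjusted p = 0.008), though the numbers are not known to pair libraries.

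C8b, which encodes the beta chain of the pore's C8, varied within groups as much as between them. It stood at 9.56 and 9.27 in the wild type control, 8.24 and 10.24 in Sox9-heterozygous YAP and 7.91 and 9.73 in Sox9-null YAP. For the Mst libraries the values were 9.09 and 9.68 (floxed control), 9.71 and 8.07 (Sox9 heterozygous) and 7.92 and 8.90 (Sox9 null). Its change in the Sox9-null Mst group was -0.98 (SE 0.65, adjusted p = 0.47), and over all activated groups -0.56 (SE 0.40, adjusted p = 0.41).

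C9, which lines the pore, went the other way in value. It stood at 9.50 and 9.42 in the wild type control, 10.18 and 10.07 in Sox9-heterozygous YAP and 9.09 and 10.93 in Sox9-null YAP. Floxed controls stood at 9.58 and 9.26, Sox9-heterozygous Mst libraries at 10.72 and 9.88 and Sox9-null Mst libraries at 9.60 and 10.73. Of the 8 activated libraries, 7 were above all 4 controls. Library 1 of the Sox9-null YAP group was below them, and the change over all activated groups, 0.71 (SE 0.31, adjusted p = 0.15), becomes 0.94 without that library. Hc, C8a and C8g had values of -0.15, -0.04 and -0.29 in that comparison.

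Among the complement regulators, C4bp, which encodes the plasma inhibitor that disassembles the C4b and C2 convertase, had positive values in all 4 activated groups, from 0.19 to 0.82. Over all activated groups it reached 0.51 (SE 0.23, adjusted p = 0.17). The 4 controls lay between 9.88 and 9.99 and the activated libraries between 9.70 and 10.99, so the ranges overlapped. Cfi, the protease that cuts C3b and C4b, lay at 0.005, Serping1, the C1 inhibitor, at -0.09, and Vtn, vitronectin, at -0.02. The 95% intervals of these 3 genes in that comparison lay within a log2 change of 1.

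**Figure D3:**
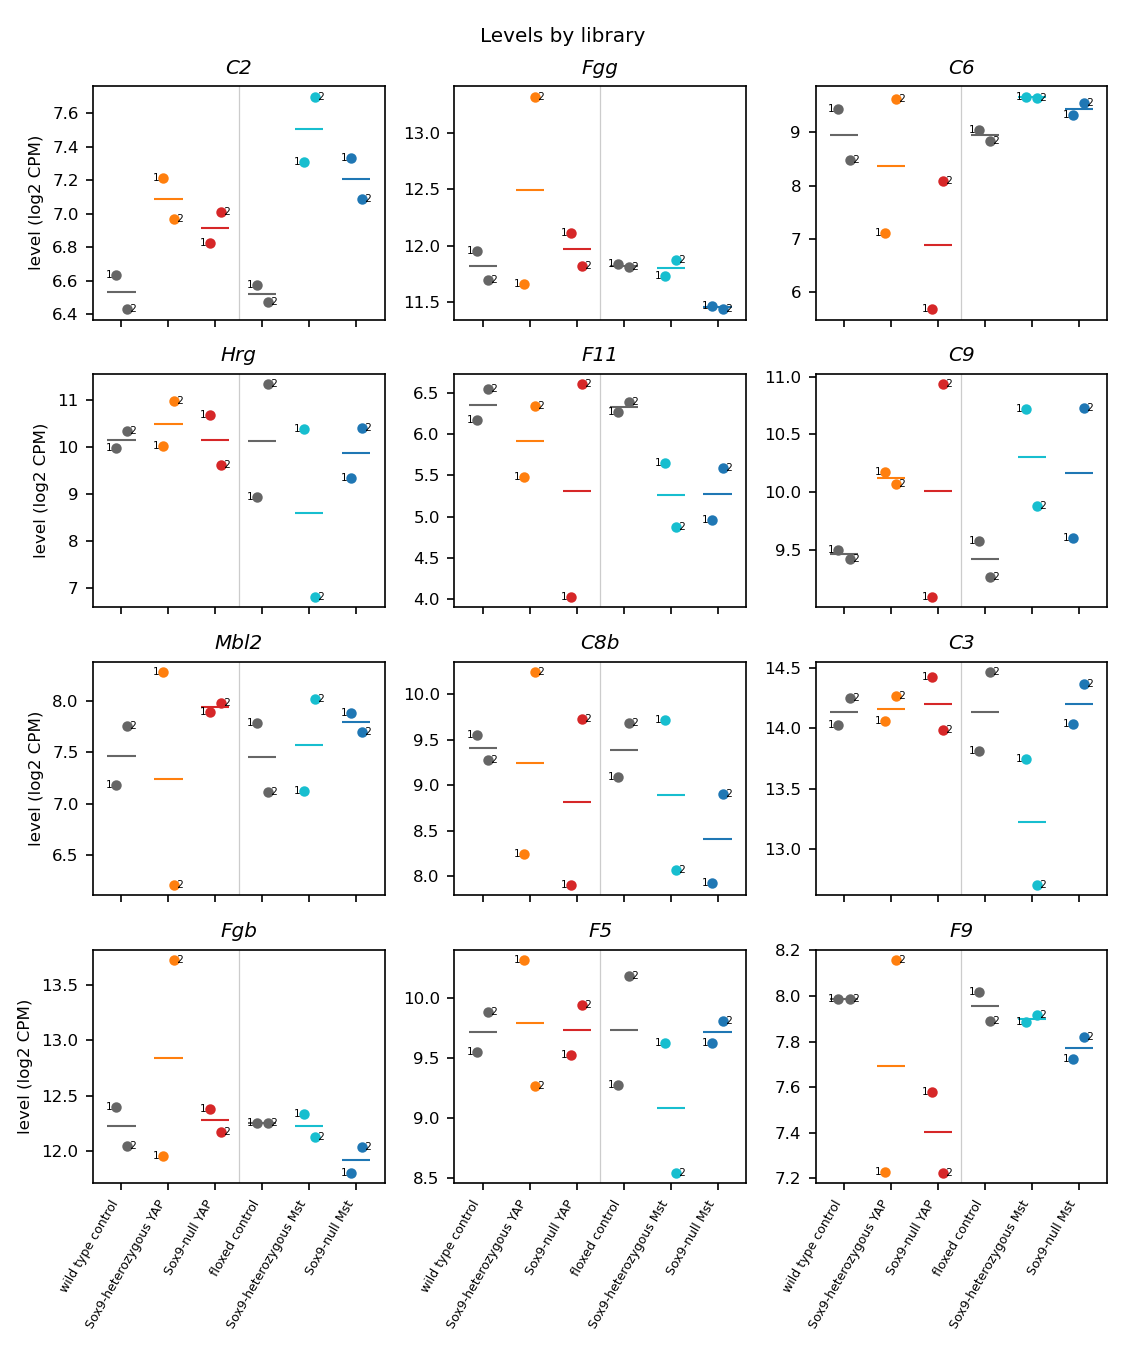
Log2 CPM of 12 genes in each of the 12 libraries, as points numbered by library with a line at the group mean; the grey line parts the YAP from the Mst experiment, and each panel has its own vertical axis. C2 is above all controls in all 8 activated libraries. The fibrinogen genes are highest and Hrg is lowest in a single library each, whereas C6 and F11 lie below the controls in several.

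The vitamin K-dependent factors are proteases and cofactors whose glutamates are carboxylated in the hepatocyte. Of these 7 genes, 6 (F2, F7, F9, F10, Proc and Proz) had negative values over all activated groups, between -0.37 and -0.19, and none was called. F9, factor IX, stood at 7.99 in both wild type controls, 7.22 and 8.16 in Sox9-heterozygous YAP and 7.58 and 7.22 in Sox9-null YAP. The Mst libraries gave 8.02 and 7.89 in the floxed control, 7.88 and 7.92 with Sox9 heterozygous and 7.72 and 7.82 with Sox9 null. Leaving out library 2 of Sox9-heterozygous YAP, which held its highest value, F9 was at -0.40 over all activated groups. Every library of the 2 Sox9-null groups was below all 4 controls, though the changes were only -0.59 (SE 0.28, adjusted p = 0.25) and -0.18 (SE 0.28, adjusted p = 0.81). F7, which starts the tissue factor pathway, was at -0.87 and -0.65 in the Mst groups (adjusted p = 0.27 and 0.36) and at 0.19 and 0.11 in the YAP groups. F7, F10 and Proz are neighbours on chromosome 8, with 1498 bases between F7 and F10 and 4237 between F10 and Proz.

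Pros1, protein S, was the vitamin K-dependent gene with positive values in all 4 activated groups: 0.13 and 0.33 in the YAP groups and 0.62 and 0.59 in the Mst groups. Over all activated groups it reached 0.42 (SE 0.15, adjusted p = 0.082), and 0.47 with library 2 of Sox9-heterozygous YAP, its lowest activated library, left out. It is also made outside hepatocytes, endothelial cells included. Proc, protein C, for which Pros1 is the cofactor, lay at -0.32 (SE 0.16, adjusted p = 0.21), and it passed with library medians made equal (-0.50, adjusted p = 0.047).

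Of the contact factors, F11 had the lowest value of the 39 over all activated groups. It encodes factor XI, the link from contact activation to factor IX. F11 stood at 6.17 and 6.55 in the wild type control, 5.48 and 6.34 in Sox9-heterozygous YAP and 4.02 and 6.60 in Sox9-null YAP. Its floxed controls read 6.27 and 6.39, the Sox9-heterozygous Mst libraries 5.65 and 4.87 and the Sox9-null Mst libraries 4.96 and 5.595. All 4 activated Mst libraries were below all 4 controls, and library 2 of the Sox9-null YAP group was above them. The value over all activated groups was -0.90 (SE 0.35, adjusted p = 0.10). It was -1.22 without that library, the one that went the other way. The replicate block called it (adjusted p = 0.0093), though the replicate numbers are not known to pair libraries. F11 and its neighbour Klkb1, prekallikrein, are 4657 bases apart, and Klkb1 lay at -0.20, F12 at 0.13 and Kng1, high molecular weight kininogen, at 0.34, none of them called.

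F5, the cofactor with which factor X makes thrombin, stood at 9.55 and 9.88 in the wild type control, 10.32 and 9.27 in Sox9-heterozygous YAP and 9.53 and 9.95 in Sox9-null YAP. For the Mst libraries the values were 9.28 and 10.18 (floxed control), 9.63 and 8.55 (Sox9 heterozygous) and 9.63 and 9.81 (Sox9 null). Library 2 of the Sox9-heterozygous Mst group was again the lowest, and the differences of group means were within that spread. F13b, the carrier subunit of the fibrin-crosslinking factor XIII, stayed between 7.66 and 8.32 in all 12 libraries.

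The fibrinogen genes were high in 1 library. Fga stood at 12.69 and 12.01 in the wild type control, 12.28 and 13.56 in Sox9-heterozygous YAP and 12.51 and 12.33 in Sox9-null YAP. Fgb stood at 12.40 and 12.04, then 11.96 and 13.73, then 12.38 and 12.17 in these groups. Fgg stood at 11.95 and 11.69, then 11.66 and 13.32, then 12.11 and 11.82. All 3 were highest of all 12 libraries in library 2 of the Sox9-heterozygous YAP group.

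In the Mst experiment the fibrinogen values were close together. Fgb was at 12.25 in both floxed controls, 12.33 and 12.12 with Sox9 heterozygous and 11.80 and 12.04 with Sox9 null. Fgg was at 11.84 and 11.81, then 11.73 and 11.87, then 11.47 and 11.44. Fga was at 12.34 in both floxed controls, 12.36 and 12.004, then 11.82 and 12.18. Both Sox9-null Mst libraries were below all controls for Fgg, by 0.37 on average (SE 0.49, adjusted p = 0.77). Against the wild type control, the 3 genes in Sox9-heterozygous YAP had values of 0.57, 0.62 and 0.67 (adjusted p = 0.80, 0.78 and 0.73), and with library 2 of that group left out Fgb is at -0.26 and Fgg at -0.16.

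Thrombin is held in check by antithrombin (Serpinc1) and heparin cofactor II (Serpind1). Serpinc1 lay at -0.23 and Serpind1 at -0.38 over all activated groups (adjusted p = 0.59 and 0.28). Serpind1 was negative in all 4 activated groups, and its 4 controls lay between 9.29 and 9.48 and its activated libraries between 8.30 and 9.42.

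The fibrinolytic genes encode plasminogen (Plg), its inhibitor alpha-2-antiplasmin (Serpinf2), the carboxypeptidase that shields fibrin (Cpb2) and histidine-rich glycoprotein (Hrg), which binds plasminogen and heparin. Plg, Serpinf2 and Cpb2 lay between -0.22 and 0.05 over all activated groups. Hrg stood at 9.98 and 10.34 in the wild type control, 10.01 and 10.98 in Sox9-heterozygous YAP and 10.69 and 9.63 in Sox9-null YAP. Floxed controls stood at 8.94 and 11.33, Sox9-heterozygous Mst libraries at 10.37 and 6.81 and Sox9-null Mst libraries at 9.34 and 10.40. Its 2 floxed controls differed by 2.39 and its Sox9-heterozygous Mst libraries by 3.56, the widest gap of any of the 39 in any group. The change in the latter group, -1.54 (SE 0.88, adjusted p = 0.43), was 0.24 without library 2 and -3.33 without library 1.

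The loss of the second Sox9 allele, on a background of active Yap, gave no called factor. Sox9-null against Sox9-heterozygous groups gave 0 of 39 in the YAP experiment (0.169% of kept genes called) and 0 of 39 in the Mst experiment (0.0468%). Over both experiments it gave 0 of 39 (0.131%), and for the difference between experiments 0 of 39 (0% of kept genes). At an unadjusted p under 0.05 the counts were 1 (6.62% of kept genes), 0 (5.89%), 0 (9.44%) and 0 (3.01%), the 1 being C6. Over both experiments 30 of the 39 intervals (76.9%) lay within a log2 change of 1, against 84.6% of kept genes. Of the 39 values 27 were below 0 and 12 above, with a median of -0.10 against 0.13 for all kept genes. That median ran from -0.13 to 0.004 with a library left out, losing its sign without library 1 of the Sox9-null YAP group and standing at -0.02 without library 2 of Sox9-heterozygous YAP and at -0.03 without library 1 of Sox9-null Mst. The largest values were -0.86 for C6 (SE 0.49, adjusted p = 0.63) and 0.51 for C3 (SE 0.47, adjusted p = 0.80).

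The difference of activation between the Mst and YAP experiments, Sox9-heterozygous groups, rests on how the control means had been made equal gene by gene, which is not known. It holds only if all libraries of an experiment were moved alike. It called 0 of 39 factors (0.197% of kept genes), with 0 at an unadjusted p under 0.05 (7.63% of kept genes).

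In 5 of the 6 groups a larger share of the factors than of kept genes differed widely between the 2 libraries, and in the wild type control a smaller one. In the Sox9-heterozygous YAP group, 13 of the 39 (33.3%) differed by over 1 log2 between the 2 libraries, against 10.3% of kept genes. The shares were 15.4% against 4.69% in the Sox9-heterozygous Mst group, 12.8% against 5.91% in the Sox9-null YAP group and 7.69% against 4.19% in the Sox9-null Mst group. They were 5.13% against 2.03% in the floxed control and 0% against 6.04% in the wild type control. These differences carry the inferred factor on the deviations, whose median was larger for the 39.

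In the Sox9-heterozygous YAP group the wide differences went both ways. Library 2 was higher than library 1 for C6 (by 2.52), C8b (2.002), C8a (1.76), Fgb (1.77), Fgg (1.67), Fga (1.28), Cpb2 (1.32), Mbl1 (1.31) and Hc (1.27). It was lower for Mbl2 (-2.06), Proz (-1.19), F2 (-1.07) and F5 (-1.05). The 3 fibrinogen genes were thus higher in the same library, whereas the pore genes were not all alike, with C9 at -0.11 and C8g at 0.43. Neighbouring genes C8a and C8b, 11130 bases apart, were alike in this group (1.76 and 2.002) but not in the Sox9-null YAP group (0.06 and 1.82).

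**Figure D4:**
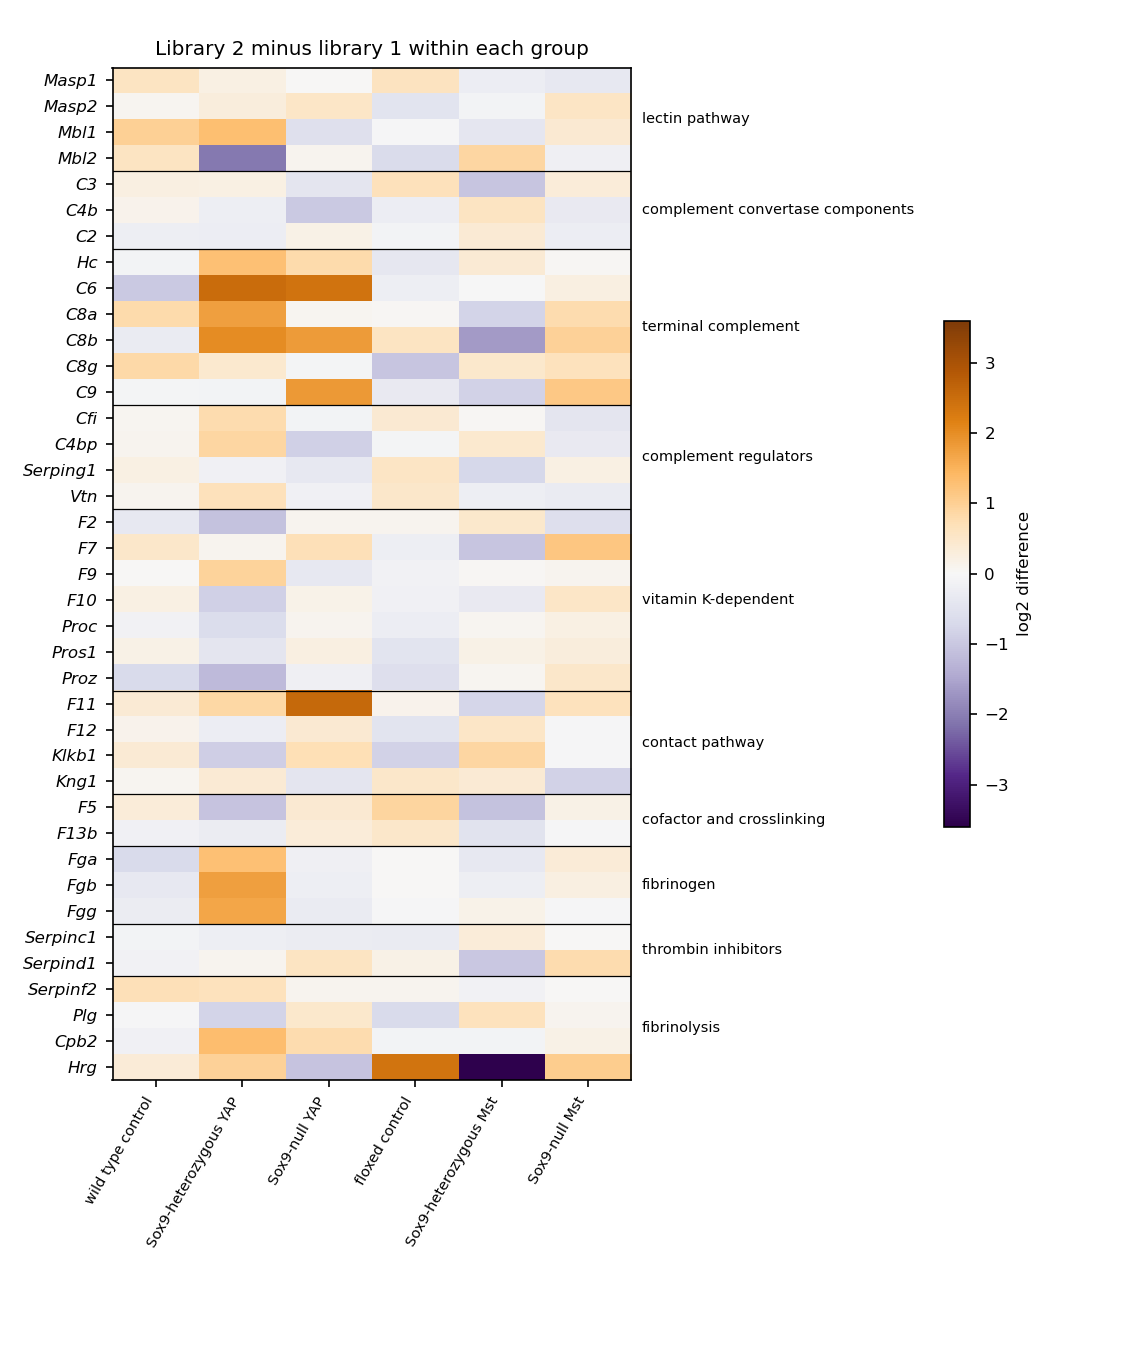
Log2 level of library 2 minus library 1 for each of the 39 genes (rows, grouped by role) in the 6 groups (columns), orange where library 2 was higher and purple where it was lower. The Sox9-heterozygous YAP column has the most strong colours, and Hrg has the widest single gap, -3.56 in the Sox9-heterozygous Mst group.

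Dividing the deviations by the inferred factor, with group means left as they are, brought far more calls. Over all activated groups 16 of the 39 were then called, where 36% of kept genes were. Of these, 5 were higher (C2, C9, C4bp, Pros1 and Kng1) and 11 lower (C8b, C8g, Masp1, F7, F9, F10, F11, Serpinc1, Serpind1, Proc and Proz). In the single groups the counts were 7 and 10 in the YAP groups and 10 and 10 in the Mst groups, against 11.6%, 27.7%, 19.8% and 26.4% of kept genes. C2 was called in all 4 groups on that scale, and the 3 fibrinogen genes in the Sox9-heterozygous YAP group alone. Which of the 2 scales holds the spread between mice was not tested.

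Other genes of the same cascades, or related to them, were taken from lists apart from the 39. The lists were chosen with earlier results of these data known, so their counts do not test the cascades. Of 30 other coagulation and fibrinolysis genes kept, 11 rose and 0 fell over all activated groups, with a median of 0.38, where 13.8% of all kept genes were called. The difference between lists was not tested. Anxa2 (3.37, SE 0.25, adjusted p = 1.7e-07) and S100a10 (0.48) form the cell surface complex that binds plasminogen and its activator. F2rl1 (2.78) and F2r (0.81) encode protease-activated receptors, Tfpi (1.63) the inhibitor of tissue factor with factor VIIa, and F8 (1.22) the cofactor of factor IX. Serpinb6a (3.29), an intracellular protease inhibitor, Anxa5 (2.39), which covers exposed phospholipid, Serpina5 (1.89), the protein C inhibitor, Kng2 (0.82), a second kininogen gene, and St14 (0.77), a membrane protease, also rose. Serpina5 was low in the controls, at -1.25 to 1.25. Its means were 0.91 (Sox9 heterozygous) and -0.51 (Sox9 null) in the YAP groups, and 3.66 and 3.47 in the Mst groups. Tfpi was low too, at -0.56 to 1.40 in the controls and 1.13 to 2.97 in the activated libraries. In the Sox9-null Mst group Serpina1e, an alpha-1-antitrypsin gene with near-identical copies, fell by 3.51 and Fgl1, a secreted fibrinogen-like protein, fell by 1.85. Most of the risers encode receptors, surface proteins or inhibitors. The list was made without the 39, which hold many of the circulating precursors, so it cannot compare these kinds of gene.

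Of 23 other complement genes kept, 1 rose over all activated groups, and their median was 0.17. In that comparison 13.8% of all kept genes were called, which also holds for the next list. The riser was Cd55, which encodes the surface inhibitor that dissociates convertases (1.36, SE 0.34, adjusted p = 0.012). The levels of Cd55 were low, at 0.27 to 1.04 in the controls and 1.22 to 3.19 in the activated libraries. Of 10 genes of the vitamin K cycle and of clotting factor secretion, Gas6, a vitamin K-dependent growth factor related to protein S (2.19), and Nqo1, a quinone reductase (0.79), rose. In Sox9-heterozygous YAP the mean of Nqo1 was 4.24, against 4.35 in the wild type control. Ggcx, the carboxylase of the cycle, was at 0.004 and not called.

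Among liver transcription factors and cytokine receptors, Cebpd, a C/EBP factor of the acute phase (-1.11), and Nr0b2, a repressor that responds to bile acids (-0.86), fell. Hnf4a (-0.43, adjusted p = 0.17), Cebpa (0.30) and Stat3 (0.02) were not called. Socs3, a feedback inhibitor of IL-6 signalling, rose by 1.58 in Sox9-null Mst cells (adjusted p = 0.0066). Of 32 other secreted liver proteins kept, Ttr, transthyretin, fell (-1.12, adjusted p = 0.0075) and 0 rose, and their median was -0.17.

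**Figure D5:**
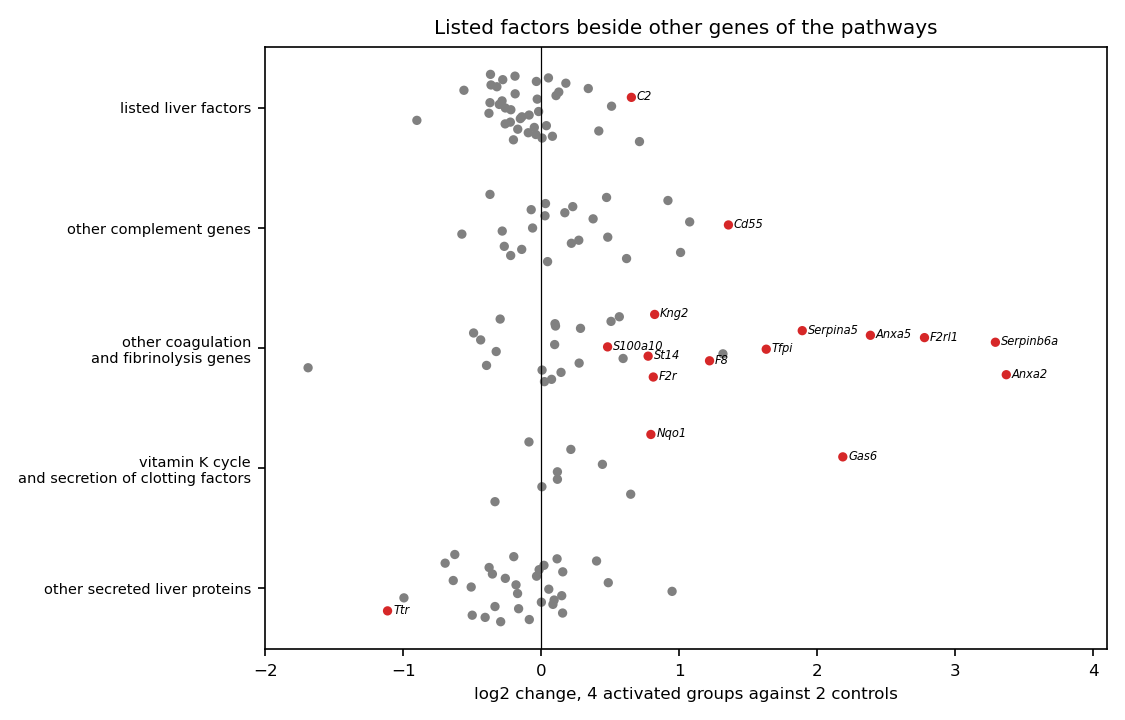
Log2 change, 4 activated groups against 2 controls, of the 39 listed liver factors and of the kept genes in 4 other lists (rows, 1 point a gene, spread vertically for legibility); red points with names had an adjusted p under 0.05. The liver factors and other secreted proteins sit around 0, and 11 of the 30 other coagulation genes are red and to the right. The lists were chosen with earlier results of these data known.

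Markers of other cells are given beside these results, for all activated groups against all controls, where 13.8% of all kept genes were called. Endothelial markers summed to 34.1 to 78.1 CPM in the controls and to 120.3 to 522 in the activated groups, with 11 of 13 called higher. F8 is on that list, Vwf was under log2 1 in all controls, and Tfpi and Pros1 are known from endothelial cells too. Macrophage markers summed to 25.6 to 85.1 CPM against 51.2 to 342, so the ranges overlapped, with 2 of 11 kept called higher and Timd4 under log2 1 throughout. Cholangiocyte markers, Sox9 among them, summed to 163 to 364 CPM against 1329.6 to 3816, a sum that is mostly Spp1 (log2 level 6.78 to 8.16 in the controls and 10.15 to 11.85 in the activated groups). Of the 5 kept, 3 were called higher, and Krt7 and Cftr were under log2 1 in all libraries. Stellate cell markers summed to 33.0 to 44.1 CPM against 27.4 to 106.4, with Dcn (1.59) and Ecm1 (1.25) called higher of 6 kept and Des and Acta2 under log2 1 throughout. Of the 6, 5 had positive changes, whereas Reln ran from 4.21 to 4.55 in the controls and from 2.36 to 4.48 in the activated groups. Hepatocyte markers summed to 69182 to 86209 CPM in the controls and 65305 to 99821 in the activated groups, with 1 of 9, Ttr, called lower. In such bulk samples more cells of a type and more RNA per cell cannot be told apart, and the part of these cells in the changes was not tested.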

How the data were processed

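Ion AmpliSeq mouse transcriptome libraries, 12 in all, were read on an Ion S5 instrument, per the labels' protocols. The deposited values are log2 CPM per gene symbol. The aligner, counter, genome build and later adjustments were not given in the sources used here, and read depth is unknown, since reads could not be recovered. Groups came from the labels. In limma 3.58.1 (R 4.3.3), 6 group means were fitted to the 12 libraries (trended prior variance, two-sided, Benjamini-Hochberg), keeping genes that reached log2 1 in 2 libraries or more. The script was tested on simulated data. Alternatives were other scalings, filters, a pseudocount of 1, no trend, 1 experiment alone, a replicate block, deviations before rescaling and leaving out each library.

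The members and lists were chosen with earlier results of these data known. All 12 values are given for members called and, up to 12 genes, for those with the largest changes within an experiment; the values of Fga were added to complete fibrinogen, and other members were named after their values were seen. Positions are from GENCODE M21 and promoters from RefSeq, both GRCm38. Cfb was not analysed here, and promoter windows were not matched for C2, C4b, Cfi, Kng1, Masp1, Plg, Proc and Serping1. Some genes and motifs of the lists are not reported here.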

Additional observations from a re-analysis of the deposited data

How the results depend on the processing

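C2 kept its call over all activated groups under every setting run for it. Its call in the Sox9-heterozygous Mst group (0.98) was lost without a trend (adjusted p = 0.053), with 1 experiment alone (0.052), with the replicate block (0.061) and without 1 of 3 libraries named in the report. The count of factors called over all activated groups, 1, was 2 with library medians made equal and 2 with the replicate block, and ran from 1 to 3 with a library left out. In the Sox9-heterozygous Mst group the count of 1 was 0 without a trend, with 1 experiment alone and with the replicate block, and ran from 0 to 2. In the Sox9-null YAP group the count of 0 was 1 with the replicate block and ran from 0 to 2.

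With deviations before rescaling, the counts called were 7 and 10 in the YAP groups, 10 and 10 in the Mst groups, 16 over all activated groups, 1 (Fgg) for Sox9 loss over both experiments and 1 (F7) for the difference of activation. Over all kept genes that setting called 1237, 2960, 2118, 2815 and 3842 for activation (168, 760, 454, 829 and 1477 as deposited). For Sox9 loss it called 476, 193 and 836 (18, 5 and 14) and for the 2 differences between experiments 636 and 63 (21 and 0). The construction rests on the inferred factor, narrows the spread and leaves the means.

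With each library left out, values that changed sign ran from -0.16 to 1.503 (Fgg), -0.26 to 1.504 (Fgb) and -1.85 to 0.67 (C6) in the Sox9-heterozygous YAP group, and from -2.33 to 0.25 (F11) and -1.51 to 0.31 (C8b) in the Sox9-null YAP group. Between these groups they ran from -1.89 to 0.69 (F11) and -0.34 to 1.72 (Mbl2). The factors' median for Sox9 loss over both experiments ran from -0.13 to 0.004. Hrg ran from -3.33 to 0.24 in the Sox9-heterozygous Mst group and from -0.51 to 3.06 for Sox9-null against Sox9-heterozygous Mst.

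The replicate numbers are not known to pair libraries: deviations of same-numbered libraries correlated at -0.12, -0.063 and -0.098 in the YAP experiment and at -0.52, -0.31 and -0.64 in the Mst experiment, where equal library means force opposite deviations. With the numbers of the Sox9-heterozygous YAP group crossed, an alternative chosen after seeing the data, the block called 1 factor in the Sox9-null YAP group and 2 over all activated groups, and C2 in the Mst group with Sox9 heterozygous (adjusted p = 0.034).

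Leaving a group with 1 library assumes that it varies like the others. Without a filter, 72, 369, 189 and 416 of all 16116 genes were called in the 4 activated groups. With it, 168, 760, 454 and 829 of the 10681 kept genes were.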
